A study of Mus musculus with 21 samples.

Results

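The immune checkpoint genes Lag3, Pdcd1, Havcr2, Tigit, Ctla4, Cd274, Pdcd1lg2, Vsir, Cd200 and Cd200r1 were followed in RNA from mouse forebrain. They were taken as a list of 10 symbols, and each symbol matched 1 Ensembl gene, which makes them 10 of 55401 genes counted. The study asked how the human APOE alleles bear on disease driven by mutant tau, and sequenced 21 mice in 6 groups. The parental groups E2H, E3H and E4H (3 mice each) were homozygous for human APOE2, APOE3 or APOE4, introduced by targeted replacement on a C57BL6 background, and were 9 to 10 months old. The groups PS/E4H, PS/E3H and PS/E2H (4 mice each) carried the same homozygous APOE alleles together with the human P301S tau transgene of line PS19, which was kept heterozygous on a B6/C3H background and is driven by the mouse prion promoter. These PS19 mice were taken when both hindlimbs were paralyzed. All 6 groups carried human APOE in place of mouse Apoe, and none carried mouse Apoe or was free of human APOE. Transgene, C3H background, age at death and paralysis therefore changed together and cannot be told apart in any comparison of PS19 with parental mice. Most mice were male, a few in E4H, PS/E2H and PS/E4H were female, and the labels do not say which.

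Checkpoint receptors are membrane proteins that restrain T cells, natural killer cells and myeloid cells when they bind a ligand on a neighbouring cell, often by recruiting phosphatases such as SHP-1. Best known from exhausted T cells and tumours, several of them are also made by microglia, the resident macrophages of the brain. CD200 on neurons and its receptor on microglia form a separate brake of the same kind, held to keep microglia quiet in the healthy brain.

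The depth was even, from 59265459 to 75932183 counts per mouse with a median of 63751715, and 7.25% to 10.9% of counts were mitochondrial. The mean distance of a library from its group was 0.264 to 0.415 (root mean square difference of log2 CPM). E2H replicate 2 stood apart from replicates 1 and 3, with chi-square values per gene of 70.8 and 62.8 against 18.4 between those, and had the largest mitochondrial share (10.9%) and the fewest genes with counts (24438) of the 21. PS/E2H replicates 2 and 3 were also far apart (73.1). Levels are given as FPKM, the deposited values scaled for transcript length and library size, member by member and where genes are compared. They are given as CPM, counts scaled for library size with TMM factors, in the APOE comparisons, for marker sums and elsewhere. The 8 forebrain transcription factors and markers checked summed to 468 to 750 CPM in every mouse. Those of hindbrain and spinal cord summed to 0.319 to 14.0 CPM, highest in PS/E3H replicate 2 and PS/E2H replicate 1.

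Promoter sequences are shown for Havcr2, Pdcd1, Cd274 and Vsir, which rose in PS19 mice, for Cd200, which did not pass the test, and for Pdcd1lg2, which was barely detected, so that both members with and members without the letters GAGGAA of the myeloid factor PU.1 are seen. Each run gives the 250 bases before the RefSeq start (GRCm38.p6), 5′ to 3′ on the gene's own strand, with any GAGGAA, or TTCCTC where it is read on the opposite strand, in capitals. Havcr2 lies at chr11:46454681-46454930 (plus strand), Pdcd1 at chr1:94052554-94052803 (minus strand), Cd274 at chr19:29367188-29367437 (plus strand), Vsir at chr10:60346601-60346850 (plus strand), Pdcd1lg2 at chr19:29410669-29410918 (plus strand) and Cd200 at chr16:45409054-45409303 (minus strand).
Havcr2: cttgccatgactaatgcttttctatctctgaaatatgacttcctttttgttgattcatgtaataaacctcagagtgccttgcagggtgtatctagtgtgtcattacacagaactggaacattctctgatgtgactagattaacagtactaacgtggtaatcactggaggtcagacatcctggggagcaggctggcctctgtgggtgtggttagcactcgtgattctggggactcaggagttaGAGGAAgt
Pdcd1: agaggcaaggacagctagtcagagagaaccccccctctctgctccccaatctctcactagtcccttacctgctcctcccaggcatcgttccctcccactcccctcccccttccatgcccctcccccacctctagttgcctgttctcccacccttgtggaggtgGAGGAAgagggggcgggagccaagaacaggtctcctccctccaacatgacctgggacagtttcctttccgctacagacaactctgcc
Cd274: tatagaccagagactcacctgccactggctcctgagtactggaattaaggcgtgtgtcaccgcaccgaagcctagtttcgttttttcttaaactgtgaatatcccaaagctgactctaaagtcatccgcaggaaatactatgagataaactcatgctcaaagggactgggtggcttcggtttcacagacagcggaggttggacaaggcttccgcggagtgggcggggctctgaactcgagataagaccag
Vsir: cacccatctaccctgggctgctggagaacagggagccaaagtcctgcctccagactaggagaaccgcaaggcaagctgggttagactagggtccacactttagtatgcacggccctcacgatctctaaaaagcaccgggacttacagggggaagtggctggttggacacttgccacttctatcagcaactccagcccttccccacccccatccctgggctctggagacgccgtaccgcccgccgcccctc
Pdcd1lg2: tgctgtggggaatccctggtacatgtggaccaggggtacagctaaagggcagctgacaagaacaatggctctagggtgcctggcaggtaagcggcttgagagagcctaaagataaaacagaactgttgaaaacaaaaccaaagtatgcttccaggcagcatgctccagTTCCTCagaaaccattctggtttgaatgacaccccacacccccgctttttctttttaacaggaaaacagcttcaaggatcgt
Cd200: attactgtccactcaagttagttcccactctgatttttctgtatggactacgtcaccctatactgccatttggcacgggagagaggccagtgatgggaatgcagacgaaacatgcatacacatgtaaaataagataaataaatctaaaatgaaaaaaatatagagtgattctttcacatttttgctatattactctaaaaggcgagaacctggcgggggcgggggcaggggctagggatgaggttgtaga
Entries were found for 8 of the 10 members, not for Lag3 and Cd200r1. GAGGAA, read on both strands, was present in 3 of the 8: at -8 in Havcr2, at -87 in Pdcd1 and, on the opposite strand, at -82 in Pdcd1lg2. Of 32817 mouse promoters of the same length, 23.3% held it. None of the 8 held the interferon-stimulated response element (2.97% of all promoters), the STAT element TTCNNNGAA (7.01%) or TATAAA (12.4%). The short NFAT core GGAAA, which 55.6% of all promoters hold, was found in Pdcd1, Cd274, Pdcd1lg2, Tigit and Ctla4. These matches describe the letters only.

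Lag3 (ENSMUSG00000030124, chr6:124904361-124911705, minus strand, 9 exons, GRCm38) encodes a CD4-like receptor that binds MHC class II. Its FPKM in the parental mice was 2.47, 4.44 and 3.28 in E2H, 4.33, 3.50 and 3.28 in E3H, and 2.56, 2.56 and 2.61 in E4H. In the PS19 mice it was 13.3, 18.8, 12.5 and 11.2 in PS/E2H, 12.5, 13.5, 11.7 and 11.6 in PS/E3H, and 16.1, 8.12, 17.5 and 20.4 in PS/E4H. All 12 PS19 mice were above all 9 parental mice, and the lowest PS19 value, PS/E4H replicate 2, still stood well above the highest parental one. The share of all genes whose groups separate in this way was not counted, here or for the members below. The counts behind these levels were 391 to 724 in parental mice and 1150 to 2910 in PS19 mice.

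Lag3 rose in every line by the quasi-likelihood F test of edgeR, with p-values adjusted by Benjamini-Hochberg over all genes tested. The log2 fold change was 2.0 ± 0.251 (SE, adjusted p = 0.00845) in PS/E2H over E2H, which is 4.01-fold. It was 1.76 ± 0.124 (adjusted p = 0.00015, edgeR) in PS/E3H over E3H, or 3.38-fold. In PS/E4H over E4H it was 2.59 ± 0.260 (adjusted p = 0.00031, edgeR), or 6.03-fold. Pooled over the 3 lines with the APOE line as a term, which uses the same 21 mice, Lag3 was 4.34-fold higher (log2 2.12, 95% interval 1.78 to 2.45, adjusted p = 5.31e-09, edgeR). The call in the E2H line was lost when E2H replicate 3 was left out (log2 1.96, adjusted p = 0.0688, edgeR), while the fold stayed near that of all mice. Without E2H replicate 2, which had the highest parental Lag3, it was 2.29 (adjusted p = 0.00664, edgeR).

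Pdcd1 (ENSMUSG00000026285, chr1:94038305-94052553, minus strand, 5 exons) encodes PD-1, the receptor of the ligands Cd274 and Pdcd1lg2. It was scarce in parental mice, at 0 to 22 counts, with an FPKM of 0.0570, 0 and 0.136 in E2H, 0.139, 0.0626 and 0.0954 in E3H, and 0.0539, 0.0694 and 0.0712 in E4H. In PS19 mice its FPKM was 0.597, 0.743, 1.003 and 0.0810 in PS/E2H, 0.565, 0.8498, 0.883 and 0.694 in PS/E3H, and 1.72, 0.598, 1.05 and 1.18 in PS/E4H. All PS19 mice except PS/E2H replicate 4, which had 11 counts, stood above every parental mouse. That mouse also had the lowest homeostatic microglial marker sum of the PS19 mice (509 CPM), and the part of this in its Pdcd1 value was not tested. Pdcd1 had the largest fold of the members. It rose 7.34-fold in PS/E3H over E3H (log2 2.88 ± 0.368, SE, adjusted p = 0.00407, edgeR) and 16.4-fold in PS/E4H over E4H (log2 4.04 ± 0.410, adjusted p = 3.39e-04, edgeR). In the E2H line the log2 fold change of 3.13 ± 0.951 did not pass the test (adjusted p = 0.225, edgeR). Leaving out 1 mouse at a time gave 2.61 (without E2H replicate 2) to 4.14 (without E2H replicate 3), with adjusted p from 0.111 (without PS/E2H replicate 4) to 0.485 (edgeR), and with DESeq2 or with all 6 groups in 1 fit it passed (adjusted p = 0.00566 and 0.0183). Pooled over lines Pdcd1 was 10.1-fold higher (log2 3.34, 95% interval 2.51 to 4.17, adjusted p = 2.57e-06, edgeR).

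Havcr2 (ENSMUSG00000020399, chr11:46454935-46481255, plus strand, 7 exons) encodes TIM-3, a receptor of T cells and myeloid cells that binds galectin-9. Parental mice had an FPKM of 0.669, 1.22 and 1.42 in E2H, 1.46, 1.13 and 1.25 in E3H, and 1.05, 1.30 and 1.25 in E4H. PS19 mice had 2.63, 2.14, 3.36 and 2.20 in PS/E2H, 1.87, 2.24, 4.41 and 3.42 in PS/E3H, and 3.60, 3.57, 3.12 and 3.08 in PS/E4H. The 12 PS19 mice again lay above all 9 parental mice, but PS/E3H was split between 2 lower and 2 higher mice. Havcr2 rose 2.79-fold in PS/E4H over E4H (log2 1.48 ± 0.140, SE, adjusted p = 2.17e-04, edgeR) and 2.48-fold pooled over lines (log2 1.31, 95% interval 1.005 to 1.61, adjusted p = 1.07e-06, edgeR). In PS/E3H over E3H the 2.35-fold rise (log2 1.23 ± 0.266, adjusted p = 0.0278, edgeR) lost its call without any 1 of the 3 E3H mice or PS/E3H replicate 4 (adjusted p = 0.0749 to 0.112), with no filter (0.0575) and in the 3 limma fits (0.0572 to 0.183). In PS/E2H over E2H the log2 fold change was 1.19 ± 0.271 and the adjusted p 0.0958 (edgeR), against 7.41e-04 by DESeq2.

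Tigit (chr16:43648867-43664146), a receptor of lymphocytes for the nectin family, and Ctla4 (chr1:60887000-60915832), the CD80 and CD86 receptor of activated and regulatory T cells, were near the limit of detection. Tigit had 0 to 18 counts per mouse and 6 of 21 mice at 3 counts or fewer, and Ctla4 had 0 to 15 counts with 11 mice at 0. Tigit entered the test in PS/E4H over E4H, with a log2 fold change of -0.36 (95% interval -2.46 to 1.75), in the pooled fit, with 0.26 (95% interval -1.34 to 1.86), in E4H over E3H and in the interactions. Ctla4 entered in no comparison. A change of either gene was not detectable at this depth.

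**Figure D1:**
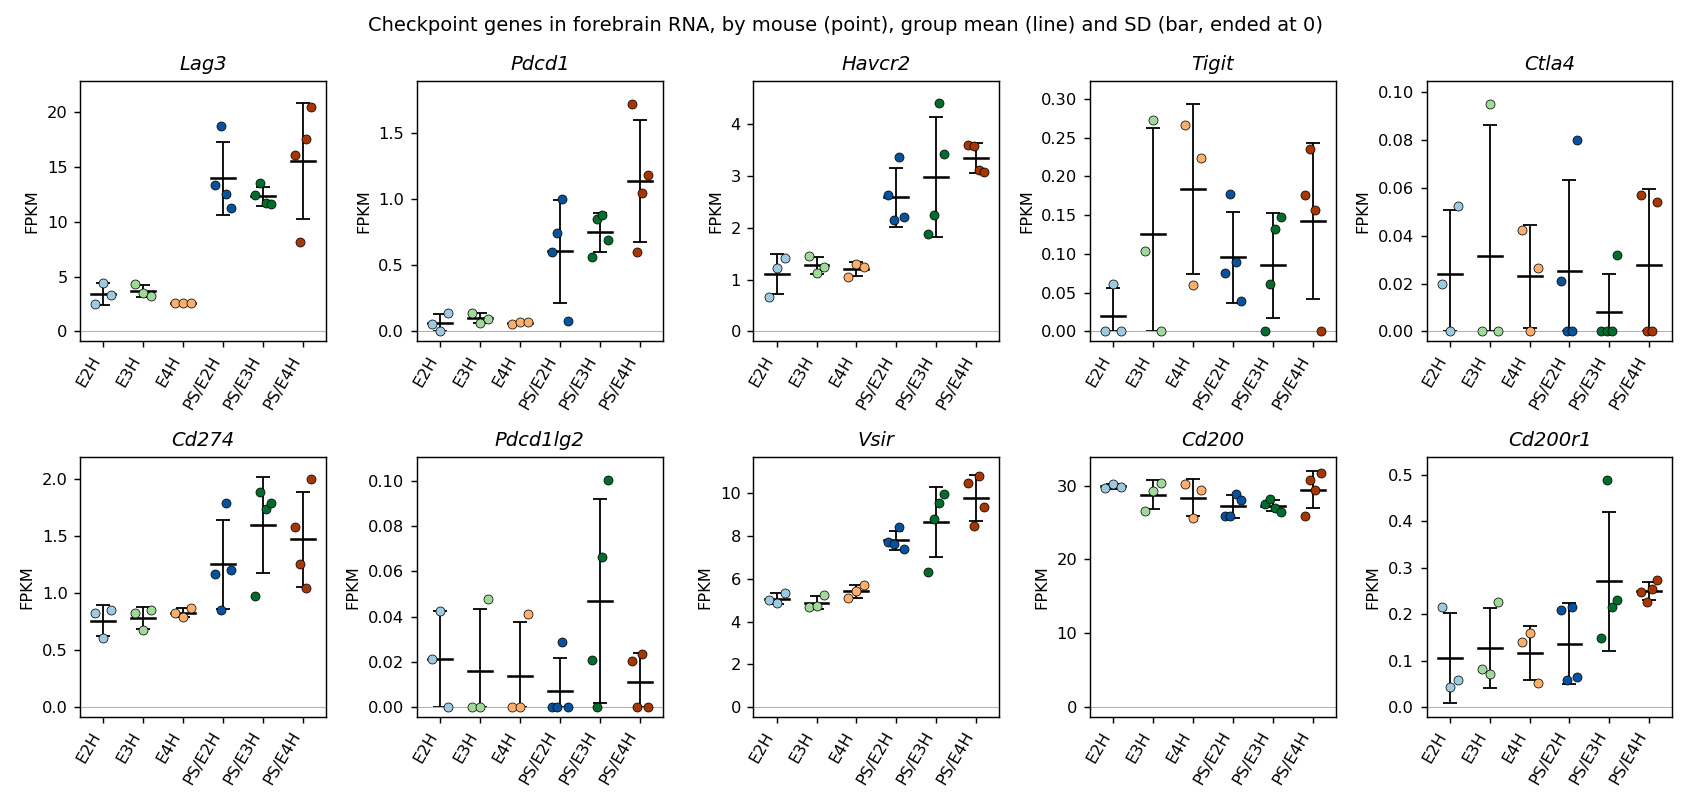
FPKM of the 10 members on separate linear axes, with 1 point per mouse, the group mean as a line and the SD as a bar (3 mice in each parental group, 4 in each PS19 group). For Lag3, Havcr2 and Vsir the 12 PS19 mice all lie above the 9 parental mice, for Pdcd1 1 PS19 mouse does not, and the parental and PS19 ranges of Cd200 overlap when the lines are pooled. The share of all genes that separate likewise was not counted.

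Of the 2 PD-1 ligands, Cd274 (PD-L1, ENSMUSG00000016496, chr19:29367455-29388095, plus strand, 7 exons) was readily detected and Pdcd1lg2 (PD-L2, chr19:29410919-29471161) was not. Cd274 had an FPKM of 0.608 to 0.851 in E2H, 0.674 to 0.855 in E3H and 0.791 to 0.874 in E4H. In PS19 mice it was 1.17, 0.855, 1.79 and 1.20 in PS/E2H, 0.977, 1.89, 1.74 and 1.80 in PS/E3H, and 1.58, 1.26, 1.05 and 2.005 in PS/E4H. On this scale PS/E2H replicate 2 overlapped the parental mice, and the other 11 PS19 mice were above them. In CPM all 12 PS19 mice were above the parental mice, by a narrow margin (lowest PS19 value 3.47, highest parental value 3.42). The rise was near 2-fold: log2 1.04 ± 0.224 (SE, adjusted p = 0.0276, edgeR) in PS/E3H over E3H, 0.82 ± 0.205 (adjusted p = 0.0237) in PS/E4H over E4H and 0.69 ± 0.243 (adjusted p = 0.312) in PS/E2H over E2H. Pooled over lines it was 0.86 (95% interval 0.58 to 1.14, adjusted p = 7.72e-05, edgeR), or 1.82-fold. Leaving out any 1 of the E3H mice or PS/E3H replicate 2, 3 or 4 took the E3H call above the threshold (adjusted p = 0.0568 to 0.112), as did no filter (0.0547) and the 3 limma fits (0.0624 to 0.174), and leaving out any 1 of the E4H mice did so in the E4H line (0.0560 to 0.0999), as did no filter (0.0532) and the 3 limma fits (0.0532 to 0.149). Pdcd1lg2 had 0 counts in 11 of 21 mice and 15 at most, in PS/E3H replicate 4, and was not tested.

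Vsir (VISTA, ENSMUSG00000020101, chr10:60346851-60372684, plus strand, 8 exons), a checkpoint protein that acts as ligand and as receptor and is abundant on myeloid cells, was higher in every PS19 mouse than in any parental mouse. Its FPKM was 5.01, 4.87 and 5.35 in E2H, 4.70, 4.74 and 5.24 in E3H, and 5.11, 5.43 and 5.70 in E4H. It was 7.74, 7.62, 8.41 and 7.42 in PS/E2H, 6.30, 8.80, 9.55 and 9.98 in PS/E3H, and 10.5, 8.45, 10.8 and 9.36 in PS/E4H. Vsir rose 1.51-fold in the E2H line (log2 0.59 ± 0.0871, SE, adjusted p = 0.0187, edgeR), 1.79-fold in the E3H line (0.84 ± 0.130, adjusted p = 0.00889) and 1.81-fold in the E4H line (0.86 ± 0.0963, adjusted p = 5.49e-04), each under the 2-fold limit of a call. Pooled over lines the fold was 1.71 (log2 0.77, 95% interval 0.63 to 0.91, adjusted p = 4.35e-08, edgeR). The E2H value lost its adjusted p without E2H replicate 1 or 3 or PS/E2H replicate 1 (0.0756 to 0.117), and the E3H value without E3H replicate 1 (0.0599). Vsir lies inside the span of Cdh23 on the opposite strand; the libraries were stranded, but whether the counting used strand was not given in the sources used here.

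Of the CD200 pair, the ligand stayed near its parental level. The receptor had few counts and a pooled log2 fold change of 0.86, the same as that of Cd274. Cd200 (ENSMUSG00000022661, chr16:45382135-45409053, minus strand, 7 exons), the ligand made by neurons, had the highest FPKM of the members, 25.6 to 30.4 in parental mice and 25.9 to 31.7 in PS19 mice. The ranges overlapped in the E3H and E4H lines, but in the E2H line the 4 PS/E2H mice (25.9 to 28.9) were all below the 3 E2H mice (29.6 to 30.3), with a log2 fold change of -0.16 (95% interval -0.34 to 0.01, adjusted p = 0.505, edgeR). Its pooled log2 fold change was -0.04 with a 95% interval of -0.14 to 0.05 (adjusted p = 0.558, edgeR), so that the interval left room for a change of up to 1.04-fold upward and 0.908-fold downward. Cd200r1 (ENSMUSG00000022667, chr16:44765736-44794978, plus strand, 9 exons), the receptor on myeloid cells, had 10 to 62 counts in parental mice and 13 to 110 in PS19 mice. In PS/E4H its 4 mice were close together at 0.226 to 0.273 FPKM, all above the E4H mice at 0.0510 to 0.160. In PS/E2H, with 0.0575 to 0.216 FPKM, the mice overlapped E2H, where replicate 1 alone reached 0.217. The pooled log2 fold change of 0.86 ± 0.335 (SE) did not pass by edgeR (adjusted p = 0.0719), and with all mice it passed narrowly by DESeq2 (adjusted p = 0.0484). By edgeR it passed without E2H replicate 1 (1.17, adjusted p = 0.0105), without PS/E2H replicate 2 (0.96, adjusted p = 0.0387) or without PS/E2H replicate 4 (0.95, adjusted p = 0.0415). Of the 50-base windows of Cd200r1, 1.16% are shared with other genes, Cd200r4 among them, and for the other members this share was 0% to 1.68%.

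The order of the members per length differed between parental and PS19 mice. In parental mice the mean FPKM ran from Cd200 (29.0 ± 1.72, SD, n = 9) through Vsir (5.13 ± 0.335), Lag3 (3.23 ± 0.758), Havcr2 (1.19 ± 0.234) and Cd274 (0.792 ± 0.0904) to Cd200r1 (0.117 ± 0.0714), Tigit (0.110 ± 0.115), Pdcd1 (0.0761 ± 0.0431), Ctla4 (0.0262 ± 0.0325) and Pdcd1lg2 (0.0170 ± 0.0213). Cd200r1 and Tigit, Tigit and Pdcd1, and Ctla4 and Pdcd1lg2 differed by less than 1 SD. In PS19 mice Lag3 (13.9 ± 3.56, n = 12) stood above Vsir (8.74 ± 1.35), and Pdcd1 (0.830 ± 0.399) above Cd200r1 (0.220 ± 0.110). The FPKM ratio of Lag3 to Vsir was 0.459 to 0.921 in parental mice and 0.961 to 2.46 in PS19 mice, with no overlap. The ratio of Lag3 to Havcr2 had a median of 2.63 in parental and 5.09 in PS19 mice, and that of Cd274 to Pdcd1, ligand to receptor, fell from a median of 11.1 in the 8 parental mice with Pdcd1 reads to 1.87, although the ranges overlapped through PS/E2H replicate 4.

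Counted over the members, the share called was above that of all genes in each PS19 comparison. The members were chosen with earlier results of these data known, so this excess is not an independent result. A call required an adjusted p under 0.05 by edgeR and at least a 2-fold change. In PS/E2H over E2H 1 of the 7 members tested was called higher (Lag3), against 0.451% of all genes tested, and in PS/E3H over E3H 4 of 7 (Lag3, Pdcd1, Havcr2 and Cd274), against 1.2%. In PS/E4H over E4H 3 of 8 were called higher (Lag3, Pdcd1 and Havcr2), against 2.4%, and in the pooled fit the same 3 of 8, against 2.24%. Without the fold limit the counts were 2, 5, 5 and 5, against 0.669%, 3.35%, 8.62% and 11.4% of all genes. No member was called lower in these comparisons. The median log2 fold change of the members tested was 0.69, 1.09, 0.99 and 0.86, where that of all genes tested was -0.02, -0.00, -0.00 and -0.01. The members that failed the filter on low counts are not in these medians.

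**Figure D2:**
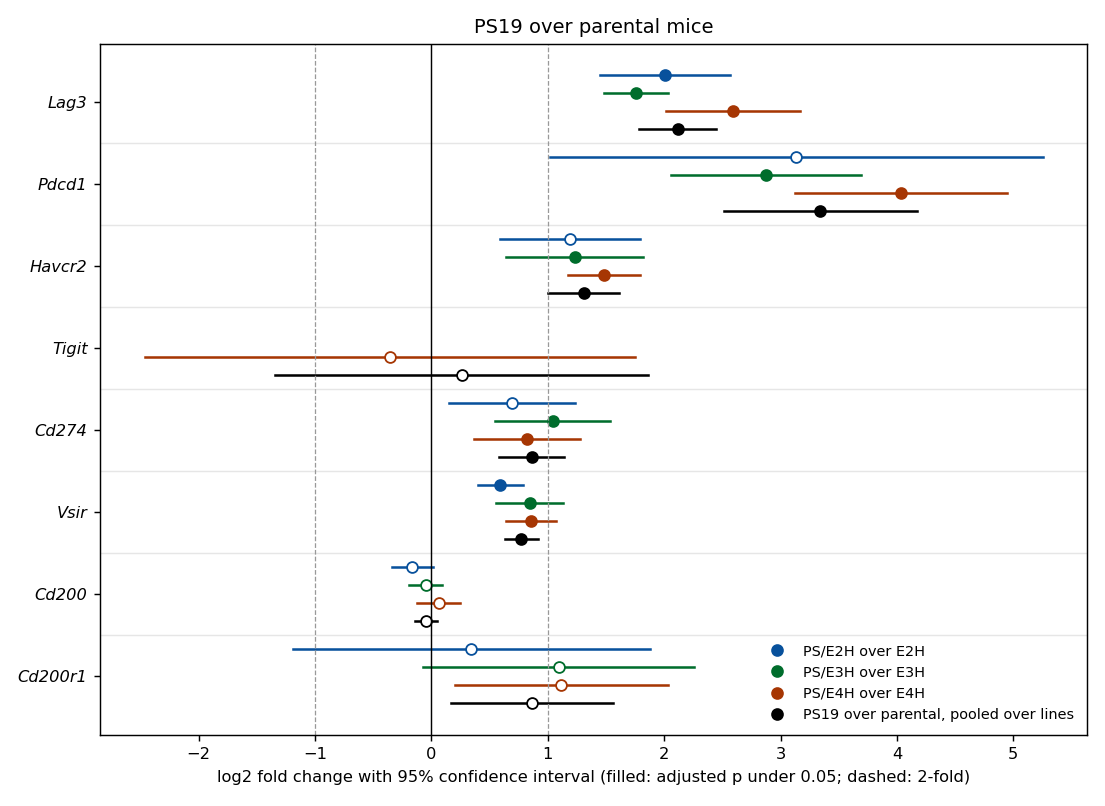
log2 fold change of PS19 over parental mice for the members that could be tested, with 95% confidence intervals, for each line and pooled over lines (edgeR). Lag3, Pdcd1 and Havcr2 lie at or beyond the dashed 2-fold line in each line, Vsir and Cd274 lie between 0 and about 2-fold, and Cd200 lies between -0.16 and 0.06.

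Whether the PS19 effect differed between APOE lines was tested as an interaction. The Lag3 effect in the E4H line was 0.83 ± 0.293 (SE, log2) larger than in the E3H line (95% interval 0.21 to 1.45, adjusted p = 0.9999, edgeR). That in the E4H line was 0.59 ± 0.374 larger than in the E2H line (95% interval -0.21 to 1.38), and that in the E2H line 0.25 ± 0.293 larger than in the E3H line (adjusted p = 0.93, edgeR). Pdcd1 had the same order for E4H against E3H (1.16 ± 0.514, adjusted p = 0.9999, edgeR). At an unadjusted p under 0.05 (edgeR) there were 2 members in E4H against E3H (Lag3 and Pdcd1) and 0 in the other interactions. The share of all genes at that threshold was not counted. After adjustment, none of the 8 members tested passed in any of the 3 interaction tests by edgeR or by DESeq2. Of all genes tested, 0% passed in each by edgeR, while DESeq2 called 7 higher and 1 lower in E2H against E3H, 8 and 3 in E4H against E3H, and 62 and 56 in E4H against E2H. The 3 interaction estimates lay between -0.04 and 0.29 for Havcr2, -0.34 and 0.13 for Cd274, -0.25 and 0.26 for Vsir, -0.11 and 0.22 for Cd200, -0.74 and 0.77 for Cd200r1 and -2.55 and 2.67 for Tigit (log2). Ctla4 and Pdcd1lg2 were not tested. The PS19 effects on Lag3 of 3.38-fold, 4.01-fold and 6.03-fold are therefore not shown to differ.

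The APOE genotypes were then compared with one another, without and with tau. These comparisons share mice, since each group enters 2 of them. Females were only in E4H, PS/E2H and PS/E4H, and the paper reports the longest survival to paralysis for PS/E3H mice. Sex and, in PS19 mice, age at death are therefore not separated from APOE genotype here or in the interactions. Lag3 in CPM was 8.20 ± 1.41 (SD, n = 3) in E3H, 8.12 ± 2.77 in E2H and 5.87 ± 0.0789 in E4H. The 3 E4H mice had 5.82, 5.83 and 5.96 CPM, below all E3H mice (7.22 to 9.82) and overlapping E2H, where replicate 1 had 5.66. E4H over E3H was -0.48 ± 0.144 (SE, log2), with a 95% interval of -0.80 to -0.16, and did not pass after adjustment (adjusted p = 0.467, edgeR). In PS19 mice the order was PS/E4H (35.5 ± 11.6 CPM, n = 4), PS/E2H (32.6 ± 8.07) and PS/E3H (28.0 ± 2.09), with overlap between each pair of neighbours. The log2 difference of PS/E4H over PS/E3H was 0.34 with a 95% interval of -0.12 to 0.80, and that of PS/E4H over PS/E2H 0.12 with an interval of -0.40 to 0.65. PS/E4H replicate 2, at 18.9 CPM, was the lowest PS19 mouse, and the other 3 PS/E4H mice had 36.6, 41.1 and 45.3 CPM.

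Among the other members, Vsir was highest in PS/E4H, at 53.2 ± 6.22 CPM (SD, n = 4), against 43.2 ± 1.67 in PS/E2H, with no overlap of the mice (log2 0.30 ± 0.0898, SE, adjusted p = 0.298, edgeR). Havcr2 had the same order in that comparison, 9.90 ± 0.928 against 7.75 ± 1.55 CPM (log2 0.35 ± 0.152, adjusted p = 0.389, edgeR). Cd200r1 was 0.929 ± 0.054 CPM in PS/E4H and 0.512 ± 0.317 in PS/E2H, with no overlap of the mice and an adjusted p of 0.458 (edgeR). No member was called in any of the 6 APOE comparisons by edgeR, where 0.144% (E2H over E3H), 0.1% (E4H over E3H), 0.187% (E4H over E2H), 0.108% (PS/E2H over PS/E3H), 0.0197% (PS/E4H over PS/E3H) and 0.109% (PS/E4H over PS/E2H) of all genes were called in either direction. DESeq2 also called 0 members in each. At an unadjusted p under 0.05 there were 2 members in E4H over E3H (Lag3 and Vsir), 2 in PS/E4H over PS/E2H (Havcr2 and Vsir) and 0 in the other 4. How many of all genes reached this unadjusted threshold was not counted. The log2 differences of Cd274 lay between -0.32 and 0.20. Tigit was tested in E4H over E3H alone (log2 0.65, 95% interval -1.67 to 2.96), and Ctla4 and Pdcd1lg2 were not tested. For Cd200 the 6 intervals lay between -0.32 and 0.32 (log2), whereas those of Pdcd1 reached from -2.77 to 2.15.

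**Figure D3:**
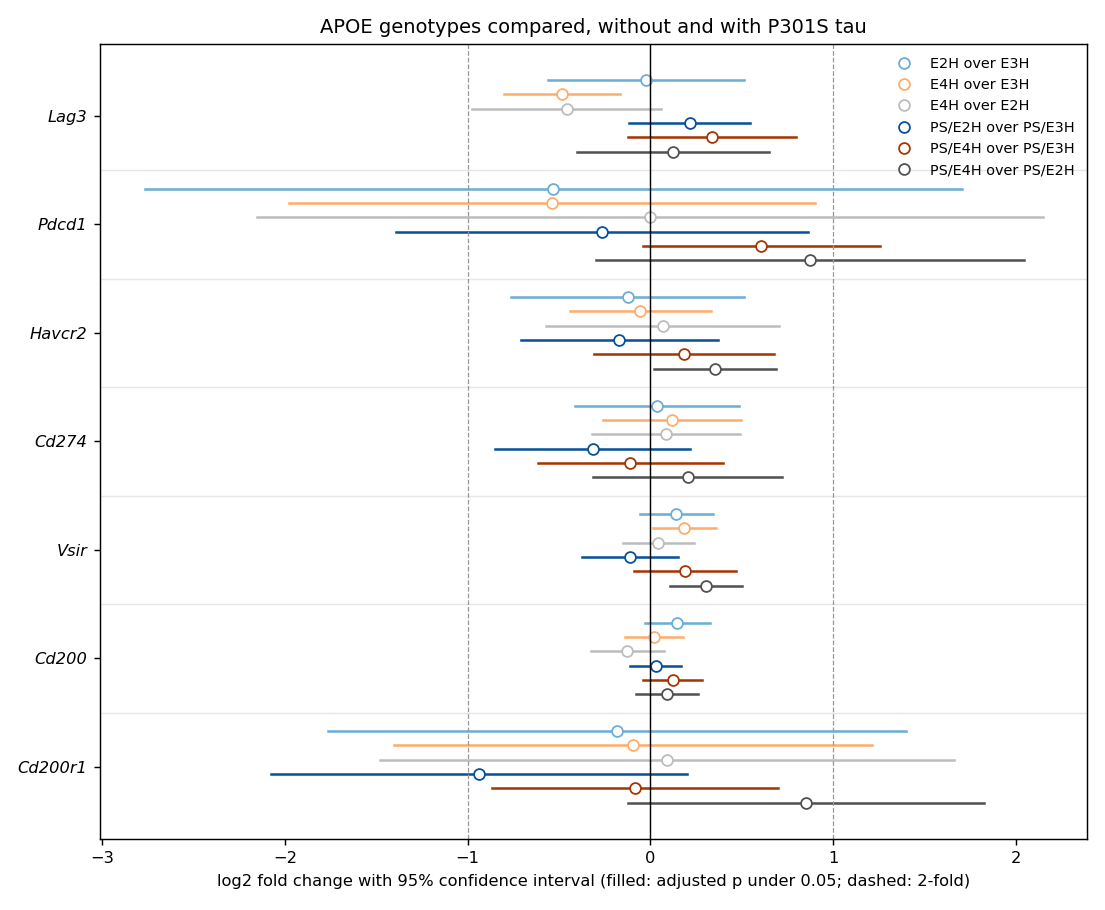
log2 fold change between APOE genotypes with 95% confidence intervals (edgeR), in parental mice (lighter colours) and in PS19 mice (darker colours), for the 7 members tested in every comparison. No point is filled, as no adjusted p was under 0.05, and the intervals are narrow for Cd200 and Vsir and wide for Pdcd1 and Cd200r1.

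The partners and relatives of the members were a list of 36 genes, of which 32 were tested in the pooled fit. Of these, 3 were called higher and 0 lower, with 8 higher and 2 lower when no fold was required. Of all genes, 2.24% were called higher and 11.4% were higher without the fold limit (the same shares stand beside each list of the pooled fit). The share of all genes lower without the fold limit is not given here, so counts of lower genes in the lists have no background beside them. The partners had a median log2 fold change of 0.09. The called genes were Cd200r4, a receptor of the CD200 receptor family without an inhibitory tail (log2 2.04 ± 0.298, SE, adjusted p = 3.01e-05, edgeR), Lgals3, which encodes galectin-3, a LAG-3 partner (1.93 ± 0.262, adjusted p = 1.36e-05, edgeR), and Cd86, a ligand of CTLA-4 and CD28 (1.54 ± 0.139, adjusted p = 6.74e-08, edgeR). Lgals9, the galectin-9 partner of TIM-3, rose 1.94-fold (adjusted p = 9.54e-06, edgeR), just under the limit. Fgl1, another LAG-3 ligand, had a log2 fold change of -0.50 (adjusted p = 0.664), and Pvr, the main TIGIT ligand, -0.05 (adjusted p = 0.668). By line, 1 of 27 partners was called higher in PS/E2H over E2H (0.451% of all genes), 3 of 30 in PS/E3H over E3H (1.2%) and 5 of 28 in PS/E4H over E4H (2.4%). Lgals9, Fgl1 and Pvr, and Nr4a3 and Tox in the next list, were chosen after their values were seen.

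Inhibitory receptor signalling, the phosphatases and adaptors that these receptors recruit, had 1 of 13 tested genes called higher in the pooled fit and a median of 0.10. It was Ptpn6, which encodes SHP-1 (log2 1.39 ± 0.139, SE, adjusted p = 2.50e-07, edgeR). With no fold required 5 rose and 2 fell. Transcription factors of T cell exhaustion and interferon inputs had 2 of 18 tested genes called higher, Batf (log2 1.28 ± 0.363, adjusted p = 0.014, edgeR) and Il10, and a median of 0.01. Il10, an inhibitory cytokine, was at 0 in 8 of 9 parental and in 6 of 12 PS19 mice, so no fold is given. In PS/E2H over E2H and PS/E3H over E3H 1 gene of this list was called lower, Nr4a3 (log2 -1.08 and -1.06), an activity-induced nuclear receptor. Tox, the factor that drives the exhausted state of T cells, was 0.876-fold in the pooled fit (adjusted p = 0.0463).

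**Figure D4:**
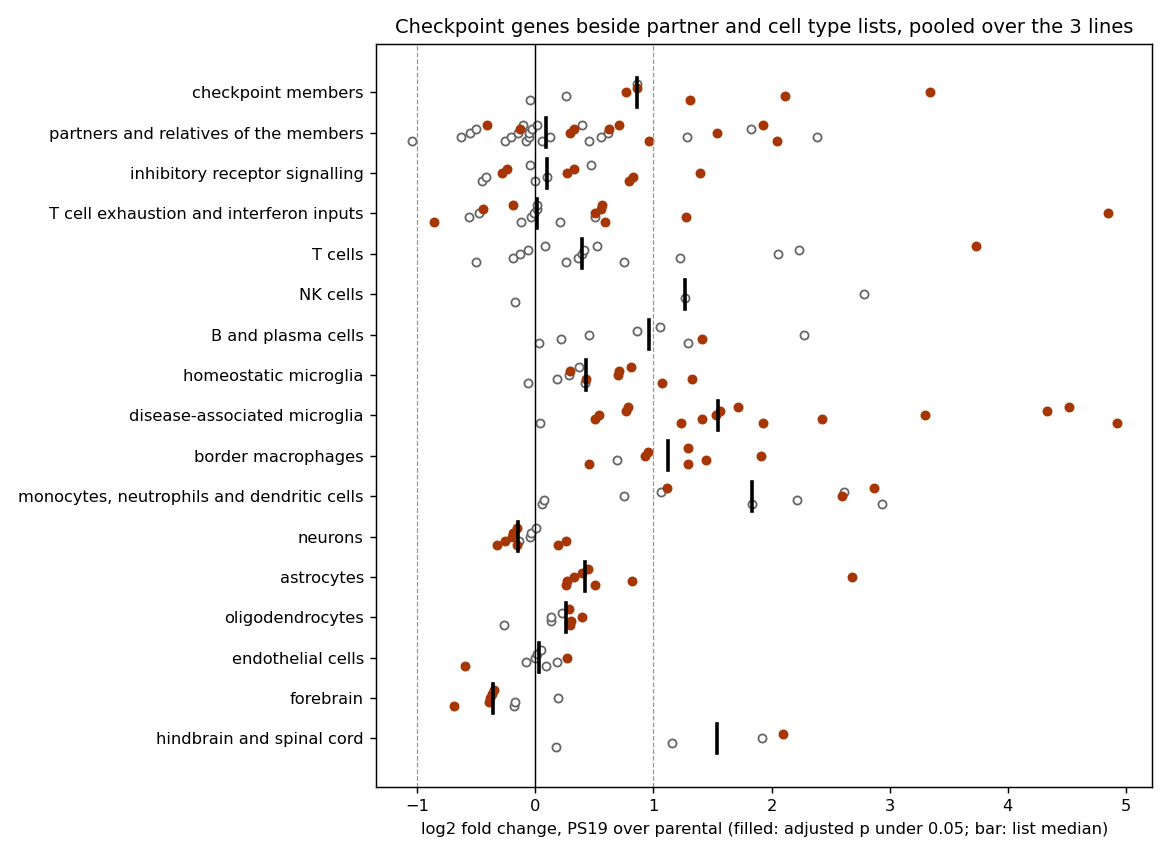
log2 fold change of PS19 over parental mice, pooled over the 3 lines, for the tested genes of each list, with filled points at an adjusted p under 0.05 (edgeR), a bar at the list's median and dashed lines at 2-fold. The members have a median of 0.86, beside 0.09 for their partners, 0.39 for T cell markers and 1.55 for disease-associated microglia.

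Markers of the cells that could carry these receptors were measured in the same libraries. In bulk tissue more cells of a type and more RNA per cell cannot be told apart. The 15 T cell markers summed to 18.0 to 24.4 CPM in parental and 16.0 to 26.0 CPM in PS19 mice, and their median log2 fold change in the pooled fit was 0.39, with 1 of 15 called, Cd8b1, which was at 0 in 8 of 9 parental and 4 of 12 PS19 mice. Most of that sum was Cd4 and Trbc2, and the defining T cell genes were at the edge of detection: Cd3d was at 0 in 8 parental and 7 PS19 mice and reached 0.291 CPM, and Cd3e reached 0.471 CPM. Cd4, the neighbour of Lag3 on the chromosome, had a mean of 9.74 CPM in parental and 8.53 CPM in PS19 mice (log2 -0.19, adjusted p = 0.181, edgeR). The 8 NK cell markers summed to at most 1.07 CPM, each at 0 in some mouse of both kinds. For scale, Lag3 alone had 18.9 to 45.3 CPM in PS19 mice.

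Of the marker sums, those of disease-associated microglia, border macrophages and astrocytes separated PS19 from parental mice without overlap. The 16 markers of disease-associated microglia summed to 602 to 860 CPM in parental and 1205 to 2600 CPM in PS19 mice without overlap, and 11 of 16 were called higher in the pooled fit (median log2 1.55). One of the 16 is mouse Apoe, which these mice do not carry and which had a mean of 13.3 CPM in parental and 13.7 CPM in PS19 mice. The most extreme were Cst7 (4.93 ± 0.315, SE), Clec7a (4.52 ± 0.273), Itgax (4.33 ± 0.237) and Gpnmb (3.29 ± 0.464), all with adjusted p under 0.05 by edgeR. The 12 homeostatic markers summed to 456 to 588 CPM in parental and 509 to 995 CPM in PS19 mice, with 2 of 12 called, among them Fcrls (1.33 ± 0.171), and a median of 0.43. Border macrophage markers had 4 of 8 called (Ms4a7, F13a1, Lyve1 and Mrc1, median 1.12). Those of monocytes, neutrophils and dendritic cells had 3 of 11 called (Ngp, Ccr7 and Ccr2), those of B and plasma cells 1 of 8 (Jchain), and those of astrocytes 1 of 8 (Gfap, 2.68 ± 0.136). The astrocyte markers summed to 3724 to 4282 CPM in parental and 5328 to 7307 CPM in PS19 mice. Among neuronal, oligodendrocyte, endothelial and forebrain markers 0 were called, and 1 of 4 tested markers of hindbrain and spinal cord was called (Slc6a5). When no fold was required 5 of 8 forebrain markers were lower, a count given without the share of all genes lower. The part of these shifts in the members' rise was not tested.

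Set against the homeostatic microglial sum, the members parted. Lag3 was at 12.4 to 20.1 CPM per 1000 CPM of homeostatic markers in parental mice and at 22.5 to 55.2 in PS19 mice, without overlap. Pdcd1 per 1000 CPM was above all parental mice in 11 of 12 PS19 mice, and Havcr2 in 9 of 12. Vsir did not part in this way, with 49.3 to 64.7 in parental and 51.5 to 81.4 in PS19 mice, 2 of which were above all parental mice. Against the disease-associated sum, Lag3 was above all parental mice in 7 of 12 PS19 mice (median 10.9 in parental and 18.3 in PS19 mice), Pdcd1 in 11, Havcr2 in 1, and Cd274 and Vsir in 0. Most of that sum is Ctsd, with a mean of 461 CPM in parental and 1226 CPM in PS19 mice, and without Ctsd and Apoe, an alternative chosen after seeing the data, the counts were also 7 for Lag3, 11 for Pdcd1, 1 for Havcr2 and 0 for Cd274 and Vsir. These ratios carry no test.

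Within the 12 PS19 mice, 7 members were compared with 3 marker sums, 21 relations on the log2 scale, each with a two-sided permutation p from 100000 resamples and Benjamini-Hochberg adjustment over the 21. Pdcd1 correlated with the homeostatic microglial sum (Pearson r = 0.926, permutation p = 0.00019, adjusted 0.00399; Spearman rho = 0.832, permutation p = 0.00129, adjusted 0.0135), and r was 0.753 without the 2 mice farthest from the median sum. Vsir correlated with the same sum by rank (rho = 0.853, permutation p = 0.00082, adjusted 0.0135), with r = 0.684 (permutation p = 0.0143, adjusted 0.0581) and 0.643 without the 2 farthest mice. With the disease-associated sum, r was 0.659 to 0.746 for Pdcd1, Havcr2, Cd274 and Vsir (adjusted permutation p = 0.0543 to 0.0581). For Lag3 no relation passed, with r = 0.0408 to the disease-associated sum (permutation p = 0.901), 0.296 to the homeostatic sum (permutation p = 0.35) and 0.236 to the T cell sum (permutation p = 0.461). None of the 7 relations to the T cell sum passed, and their r lay between -0.302 and 0.559. Most of that sum is Cd4 and Trbc2 (means of 8.53 and 7.48 CPM in PS19 mice). These relations therefore mostly describe those genes and cannot decide on a link to T cells. The 12 mice span 3 APOE lines whose means have the same order for the homeostatic microglial sum, Pdcd1 and Vsir. With line means removed and mice permuted within lines (exact, 13824 permutations, chosen after seeing the data), Pdcd1 kept r = 0.8995 to the homeostatic sum (permutation p = 0.0021, adjusted 0.0441), while Vsir had r = 0.5256 (permutation p = 0.0219, adjusted 0.205), and no other relation passed. With Ctsd and Apoe left out of the disease-associated sum, r for Lag3 was -0.137 (permutation p = 0.67).

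**Figure D5:**
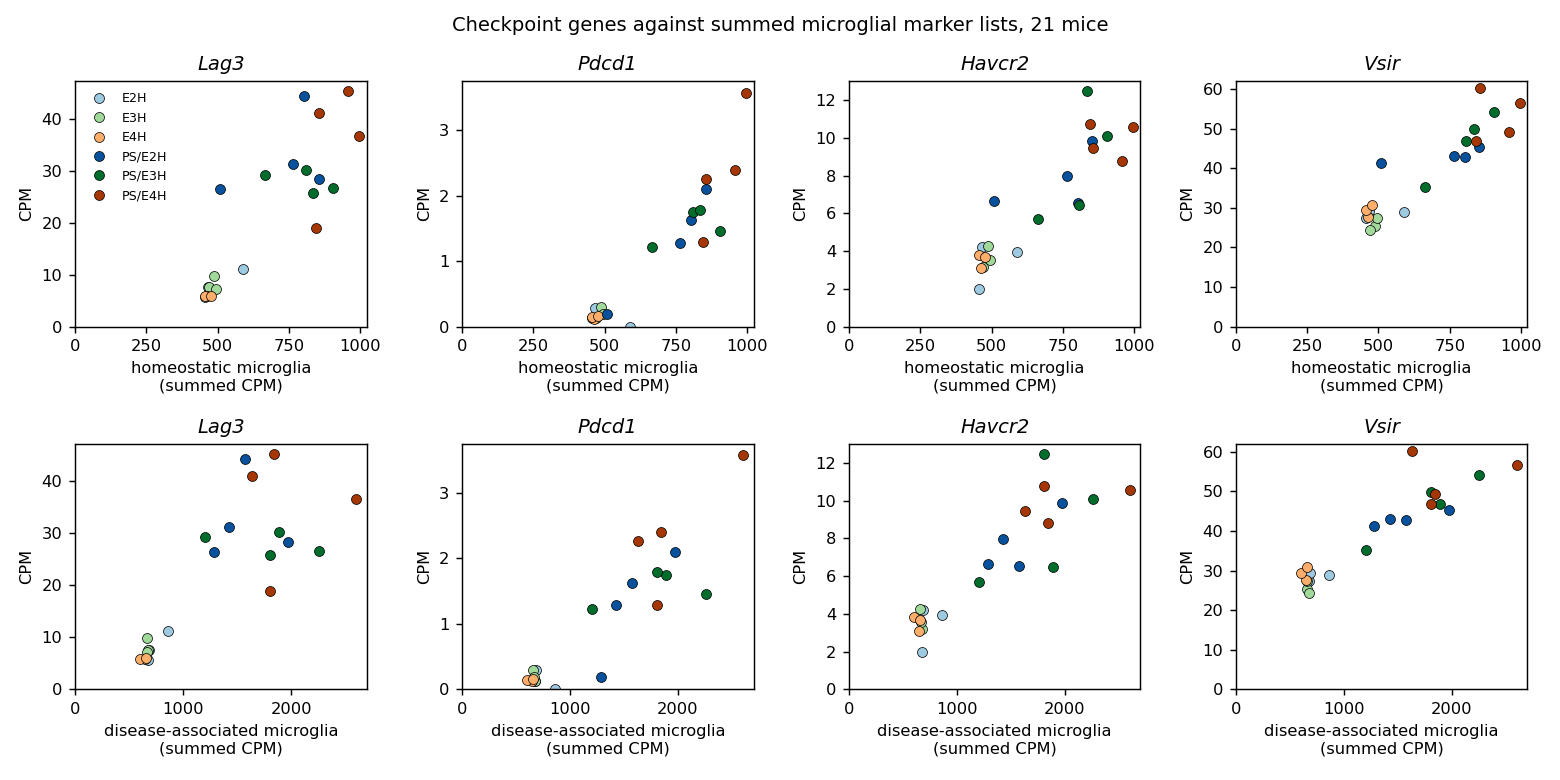
CPM of Lag3, Pdcd1, Havcr2 and Vsir against the summed CPM of homeostatic (upper row) and disease-associated (lower row) microglial markers, 1 point per mouse. Parental mice cluster at the lower left, and among PS19 mice Pdcd1 is higher where the homeostatic sum is higher (r = 0.926), while r for Lag3 is 0.296.

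The genes most like each member over the 21 mice were found among 15774 genes with a mean of at least 1 CPM, by the root mean square difference of log2 CPM after centring each gene on its mean. Since PS19 and parental mice form separate clusters, likeness mostly reflects that step. For Lag3, whose own spread was 1.09, they were Siglecf (0.349), the complement genes C1qa (0.358), C1qb (0.402) and C1qc (0.414), and Ccl9 (0.409). For Havcr2 (own spread 0.715) they were Cd86 (0.267), Laptm5 (0.279) and Gpr84 (0.281), and for Pdcd1 (own spread 1.53) Ccl6 (0.676), C4b (0.686) and Cybb (0.690). For Cd274 (own spread 0.495) they were Tgfbr2 (0.1996), Cd33 (0.211) and Pros1 (0.216). For Vsir (own spread 0.413) they were Slco2b1 (0.118), Ctsb (0.130) and Mlc1 (0.131), and for Cd200 (own spread 0.101) Ubl3 (0.0611), Cryzl1 (0.0632) and Necap1 (0.0643).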

How the data were processed

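Forebrain RNA was measured in 21 mice. The authors prepared stranded poly(A) libraries, sequenced them in pairs on an Illumina NovaSeq instrument, trimmed with Cutadapt, mapped the reads to GRCm38 using HISAT2 and quantified with StringTie. They deposited raw counts per gene, without normalization, and FPKM values, scaled by the authors for transcript length and library size. Versions and how the counts were derived are not given in the sources used here. Reads that match several genes were assigned in the authors' counting.

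Each comparison of 2 groups was fitted to the counts of its own mice with edgeR 4.0.16 in R 4.3.3 (TMM, filterByExpr with a minimum count of 10 and minimum total of 15, glmQLFit and glmQLFTest), and p-values were adjusted over all genes tested. A pooled fit held the APOE line as a term, and interactions were fitted on the 4 groups of 2 lines. A call needed an adjusted p under 0.05 and a 2-fold change, interactions no fold. CPM used TMM factors, and relations and likeness log2(CPM + 0.1). Alternatives used DESeq2 1.42.0, limma 3.58.1 on log2(FPKM + 1) or log2(FPKM + 0.1), other filters and size factors, all groups in 1 fit, a replicate block and leaving out each mouse. The fits were tested on simulated data. Python 3.11.15, NumPy 2.4.6, SciPy 1.17.1, pandas 2.3.3 and matplotlib 3.10.9 did the rest. Positions are those of GENCODE M21 (GRCm38), and promoters those of RefSeq (GRCm38.p6).

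The groups and replicate numbers come from the labels, and 0 columns of the tables were left unmapped. Samples of one group are separate mice, and no 2 libraries of a group agreed within counting noise. The members and gene lists were chosen with earlier results of these data known. By rule all 10 members are named in every comparison, and of each other list up to 4 called genes with the most extreme pooled log2 fold change. One called homeostatic marker is not reported here. Total counts of 59265459 to 75932183 per mouse set the counting precision, and members at 3 counts or fewer were treated as not detected.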

Additional observations from a re-analysis of the deposited data

Results flagged for a closer look

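In the 30 groups of 4 mice checked, 10 members in 3 PS19 groups, 2 held a mouse far from the others. Pdcd1lg2 was at 0.064966 CPM in PS/E2H replicate 3, which is 4 counts, and at 0 in the other 3 PS/E2H mice. Ctla4 was at 0.08554 CPM in PS/E3H replicate 4, which is 6 counts, and at 0 in the other 3 PS/E3H mice. Chance flags about 1 in 20 groups of continuous values, a rate that does not hold for groups with 3 mice at 0, where any count stands apart. Both values are near the limit of detection.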

How the results depend on the processing

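Being called or not was unchanged for 1764 of 1801 values of the members under the alternatives. Most of these values belong to members and comparisons without a call in the main fit, which had no call to lose. The share therefore does not measure how stable the calls are. The call was lost in 32, gained in 5 and reversed in 0. A change of sign between values that were not called counts as unchanged here. Tigit in PS/E4H over E4H, for example, ran from a log2 of -0.37 to 0.19 over the alternatives other than leaving out a mouse. The count of members called in PS/E2H over E2H was 1 and became 2 with no fold limit, 3 with DESeq2, 3 with all 6 groups in 1 fit and 0 with limma on log2(FPKM + 1) without a filter, where Lag3 had a log2 change of 1.77 and an adjusted p of 0.0647. In PS/E3H over E3H it was 4 and became 2 with no filter on low counts, 2 with limma on log2(FPKM + 0.1) and 1 with limma on log2(FPKM + 1), with or without a filter. In PS/E4H over E4H and in the pooled fit it was 3 and became 5 with no fold limit and 1 with limma on log2(FPKM + 1), with or without a filter, since that pseudocount shrinks the change of low genes such as Pdcd1. Leaving out each mouse gave 0 to 1 in PS/E2H over E2H, 2 to 4 in PS/E3H over E3H, 3 in PS/E4H over E4H and 3 to 4 in the pooled fit. The 0 is without E2H replicate 3, the 2 without any 1 of the E3H mice or PS/E3H replicate 4, and the 4 of the pooled fit without E2H replicate 1. The 0 calls of the 6 APOE comparisons and the 3 interactions stayed at 0 under each alternative run.

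The labels do not state that replicate numbers pair the mice. Correlations of same-numbered mice ran from -0.223 to 0.252. Differently numbered mice were not compared, so this range cannot decide whether the numbers pair them. With the number as a replicate block the members called were 1, 2, 3 and 3 in PS/E2H over E2H, PS/E3H over E3H, PS/E4H over E4H and the pooled fit. The block took Havcr2 and Cd274 in PS/E3H over E3H to adjusted p of 0.0781 and 0.0989, and Cd274 in PS/E4H over E4H to 0.102 (edgeR). The calls over all genes in PS/E2H over E2H were 93 higher and 7 lower, and with the block 138 and 12. In PS/E3H over E3H they were 254 and 27, and with the block 141 and 16. Other totals in PS/E2H over E2H were 250 higher and 20 lower with DESeq2, 194 and 14 with all 6 groups in 1 fit, 52 and 3 with no filter, and 33 and 1, 69 and 4, and 16 and 0 with limma at a pseudocount of 1, of 0.1, and of 1 without a filter. For PS/E3H over E3H they were 162 and 11 with no filter, and 57 and 3, 157 and 30, and 4 and 0 with limma in that order. In PS/E4H over E4H (500 and 121) the block gave 374 and 49, no filter 408 and 69, limma at a pseudocount of 1 gave 129 and 4, and without a filter 114 and 2. In the pooled fit (511 and 84) limma gave 79 and 2, 305 and 39, and 78 and 0. Among relations to marker sums, under alternatives chosen after seeing the data, that of Lag3 to the disease-associated sum changed sign without Ctsd and Apoe (r = -0.14) and that of Cd200r1 to the T cell sum within APOE lines (r = -0.0815), and neither passed in any form. Depth limits Tigit, Ctla4, Pdcd1lg2 and Cd200r1, and Pdcd1 in parental mice. Intervals cover the spread between 3 or 4 mice.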
